A study of Caenorhabditis elegans with 11 samples.

Results

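The genes that activate fatty acids, carry them into mitochondria and break them down by beta-oxidation were followed over 4 ages in worms kept on 5 mM 2-deoxy-D-glucose (DOG). The members are all rows of the count table whose gene name starts with acs-, acdh-, ech-, cpt- or maoc-, together with daf-22. This rule uses names and no measured value. It gave 51 of the 45461 genes of the table. They were divided into 3 classes, namely 21 activation genes (acs), 6 transport genes (cpt) and 24 oxidation genes (13 acdh, 9 ech, maoc-1 and daf-22). All 51 passed the minimum of 100 counts summed over the libraries.

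A fatty acid enters metabolism once an acyl-CoA synthetase, encoded by an acs gene, has joined it to coenzyme A. Long chains then pass into mitochondria as carnitine esters, which carnitine palmitoyltransferases (cpt genes) make on the outer and resolve on the inner membrane. Acyl-CoA dehydrogenases (acdh) and enoyl-CoA hydratases (ech) carry out the first steps of each round of beta-oxidation and also act in the breakdown of branched-chain amino acids and of propionate. Peroxisomes run a parallel pathway, in which the hydratase maoc-1 and the thiolase daf-22 shorten the side chains of ascarosides, the pheromones of C. elegans.

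The RNA came from whole adult worms of the wild type N2 (var. Bristol), many worms pooled per sample (fewest at the oldest age), and mRNA was sequenced. Every group received DOG, a glucose analogue that is taken up but not broken down by glycolysis, on NGM agar with heat-inactivated E. coli from the end of the L4 stage on, so no untreated group enters these comparisons and age and length of treatment cannot be told apart. The groups were worms at 1 day, 5 days and 10 days after L4, with 3 libraries each, and at 20 days, with 2 libraries. Offspring were washed away daily, but eggs inside the adults remained part of the sample.

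The libraries held 23648292 to 58499127 counts on genes. The 51 members took 0.553 to 0.568% of these counts at 1 day, 0.501 to 0.508% at 5 days, 0.469 to 0.488% at 10 days and 0.477 to 0.482% at 20 days. Replicates of an age differed by more than the sampling of reads (chi-square of 5.05 to 19.9 for each degree of freedom), so each library counted as 1 sample. The labels do not say whether replicates were separate cultures, and p-values measure only the spread between these libraries. Levels are given as CPM, the count of a gene scaled to an equal total of counts on genes in each library, or, where genes are compared with each other, as CPM per kilobase of exon (RPKM). Changes are log2 ratios of the later to the earlier age from edgeR's quasi-likelihood test with TMM normalization, and a gene was called higher or lower at a Benjamini-Hochberg adjusted p under 0.01 over all 14773 genes tested. TMM normalization put the median change of all genes between 1 and 20 days at -0.01, whereas scaling by library size alone, as in CPM, put it at 0.14. A change in CPM and the fitted change can therefore differ by about that much.

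Marker transcripts of several tissues made up a smaller part of the total in old worms. The summed CPM of 7 intestine markers, the main tissue of fat storage, was 880 to 909 at 1 day, 281 to 288 at 5 days, 161 to 197 at 10 days and 266 to 274 at 20 days, and each of the 7 averaged more than 3 CPM at every age. The sums of 6 body wall muscle markers (4670 to 5020 at 1 day, 758 to 807 at 20 days), of 5 pharynx markers (424 to 468 and 157 to 160) and of 6 hypodermis markers (2020 to 2180 and 32.4 to 33.1) were also lower at the late age, while those of 9 germline and oocyte markers (7060 to 7130 and 7680 to 7870) and of 7 neuron markers (191 to 210 and 351 to 353) were higher. Not every marker followed its sum. Between 1 and 20 days 2 germline and oocyte markers were called higher and 3 lower, and 3 neuron markers higher and 3 lower (38.5% and 38% of all genes tested). The median fitted changes of these lists were -0.005 and -0.07. In the lists with lower sums, pha-4 (pharynx, 0.995) and nhr-25 (hypodermis, 1.78) were called higher, and elt-2 and elt-7 (intestine) were not called. The hypodermis sum at 1 day was mostly col-19 (2081 CPM), and the neuron sum was mostly snb-1 (132.9 CPM at 1 day and 262.2 CPM at 20 days). In whole worms, fewer cells of a type and less RNA per cell cannot be told apart. The part of these shifts in the results below was not tested.

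The oxidation genes were mostly lower in old worms, the transport genes mostly higher, and the activation genes divided almost evenly. Between 1 and 20 days, 16 of the 51 members were called higher and 27 lower, where 76.5% of all genes tested were called, 38.5% higher and 38% lower. Their median change was -0.21, beside -0.01 over all genes. Of the 24 oxidation genes 3 were higher and 17 lower (median -0.95), of the 6 transport genes 4 were higher and 2 lower (median 1.18), and of the 21 activation genes 9 were higher and 8 lower (median 0.13).

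The changes did not run evenly through life. From 1 to 5 days, 11 members were called higher and 28 lower (34.5% and 34% of all genes, 68.4% in all). The lower calls included acs-18, acdh-2 and acdh-8, which passed the count minimum through their counts at 1 day. With no count minimum, 12 members were higher and 28 lower in this interval (19.4% and 21.8% of all genes tested). From 5 to 10 days, 11 were higher and 18 lower (23.7% and 24.6%, 48.4% in all). From 10 to 20 days 20 members were higher and 12 lower (28.3% and 28.2%, 56.5% in all). With at least 100 counts required in every library, 12 of the 35 members tested were higher and 10 lower in this interval (29.8% and 30.4% of all genes tested). Among activation genes the last interval held 11 higher and 4 lower calls after 7 higher and 10 lower calls in the first, and among oxidation genes it held 6 higher and 7 lower calls after 1 higher and 16 lower. Across the 3 intervals, 3 members were called higher in each (acs-2, cpt-1 and cpt-4) and 8 lower in each (acdh-1, acdh-13, ech-2, ech-6, ech-7, acs-1, acs-5 and cpt-5). For 18 members, calls of opposite direction occurred in different intervals, and acdh-12, ech-5 and acs-9 were called in none of the 4 comparisons. How often such sequences of calls occur among all genes tested was not counted, so they cannot be read as a trait of these members. The call of acdh-13 between 5 and 10 days (-0.19) was lost without replicate 2 of 5 days (adjusted p = 0.011). With scaling by library size alone, all genes divided into 35.3% higher and 20.2% lower between 10 and 20 days.

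**Figure D1:**
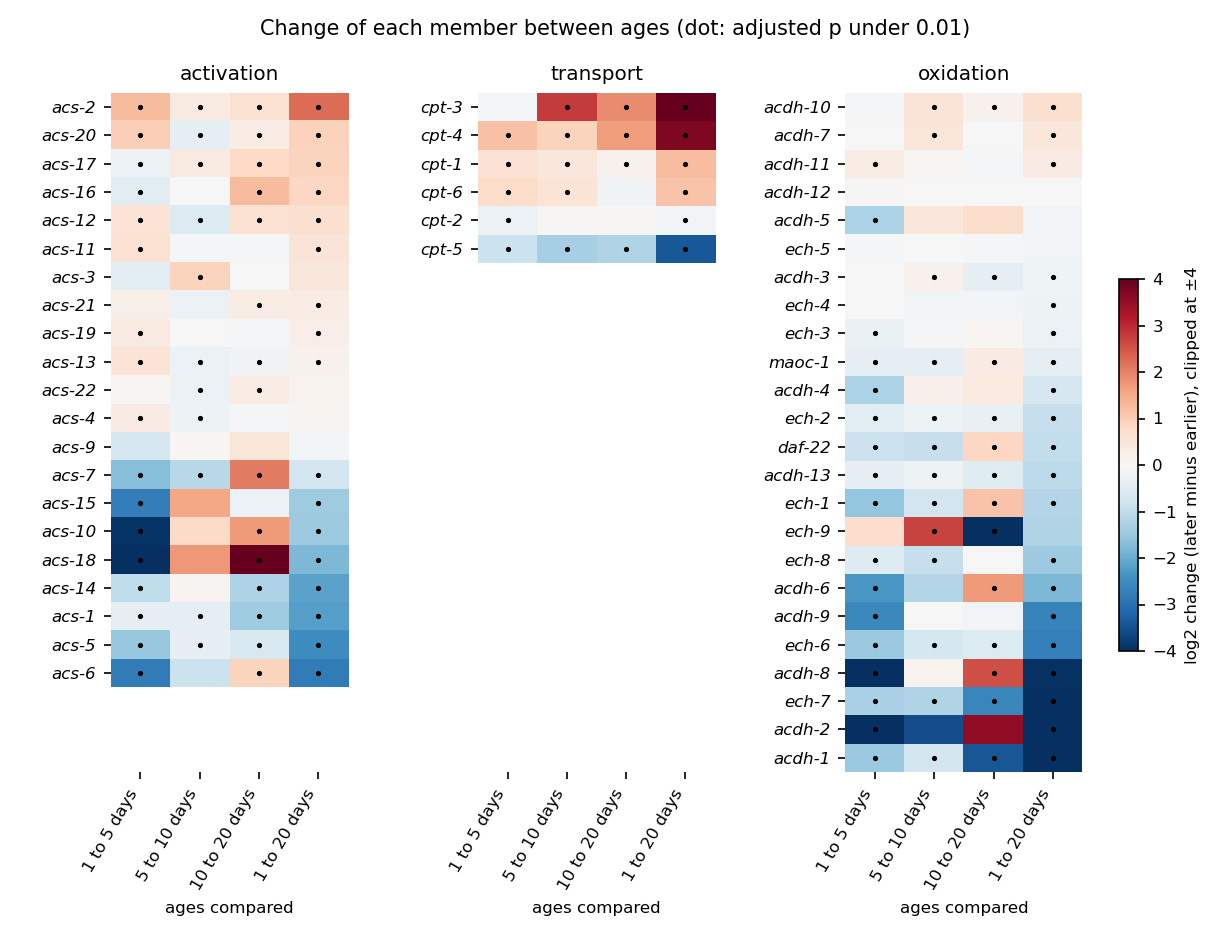
Each row is 1 of the 51 members, sorted within its class by the change between 1 and 20 days, and each column is 1 comparison of ages. Colour gives the log2 change (later minus earlier age, edgeR, clipped at 4), and a dot marks an adjusted p under 0.01; the oxidation class is mostly blue in the last column, with 17 lower and 3 higher calls, and 4 of the 6 transport genes are red.

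Summed over the class, the level per length of the oxidation genes was lower at each later age, with the widest gap between 1 and 5 days. At 1 day their summed RPKM was 2133 ± 55.5 and at 5 days 1165 ± 18.01 (SD, n = 3 each), then 1004 ± 19.1 (n = 3) in worms of 10 days and 858 ± 10.3 (n = 2) in those of 20 days. The libraries of no 2 ages overlapped. Most of the difference lay in acdh-1 and ech-6, whose joint level was 1282 ± 32.4, 473.5 ± 7.17, 288.6 ± 21.9 and 119.3 ± 1.42 RPKM at the 4 ages. Their share of the class went from 60.1% to 13.9%. The other 22 oxidation genes together stood at 851 ± 24.1 RPKM at 1 day and between 692 ± 12.1 and 739 ± 8.91 RPKM afterwards.

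The other classes moved less in sum. The transport genes summed to 187 ± 2.89, 222 ± 4.603, 279.9 ± 1.96 and 339.6 ± 0.849 RPKM at the 4 ages, higher at each age than at the one before in every library. The activation genes summed to 902.5 ± 8.69, 1143 ± 6.25, 1053 ± 33.2 and 1095 ± 7.07 RPKM, highest in the libraries of 5 days. The ratio of the classes thus shifted, from an oxidation sum more than the activation sum at 1 day to one below it at 20 days. This change of order rested on acdh-1 and ech-6. The other 22 oxidation genes summed to less than the activation genes at each of the 4 ages (851 against 902.5 RPKM at 1 day). These sums have no test of their own.

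**Figure D2:**
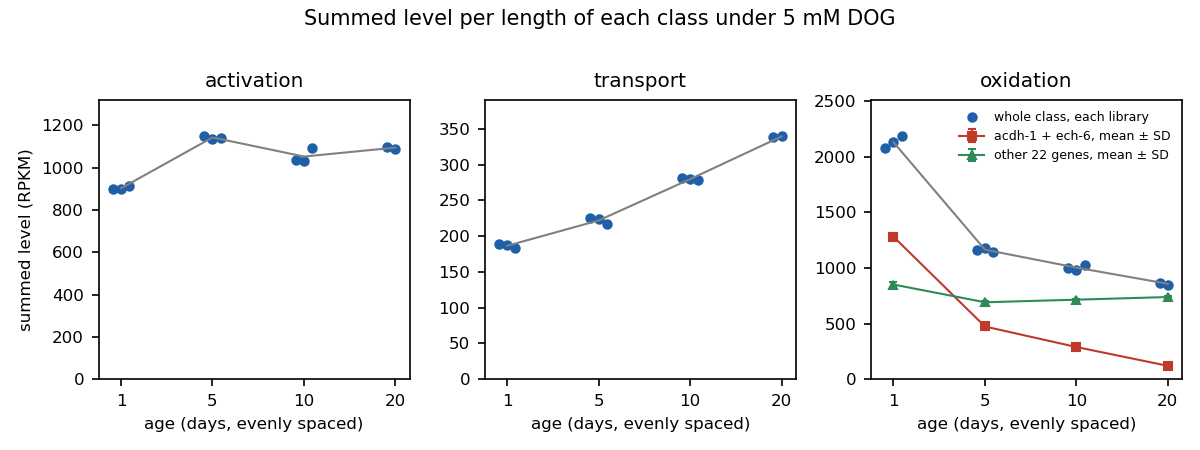
Summed RPKM of each class by age in days (ages evenly spaced), with a blue point for each library and a line through the means; red squares and green triangles in the oxidation panel are means ± SD of acdh-1 with ech-6 and of the other 22 genes. The oxidation sum is lower at each later age and the transport sum higher, and acdh-1 with ech-6 go from 1282 to 119.3 RPKM while the other 22 genes stay between 692 and 851 RPKM.

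Among the transport genes, cpt-1 rose at every step. It encodes the carnitine palmitoyltransferase of the outer mitochondrial membrane, the entry point of long chains (Y46G5A.17, chromosome II). Its level was 251, 246 and 234 CPM in the libraries of 1 day, 375, 387 and 370.0 CPM at 5 days, 528, 519 and 512 CPM at 10 days and 625 and 632 CPM at 20 days. No 2 ages overlapped. The log2 change was 0.59 ± 0.038 (SE) from 1 to 5 days, 0.46 ± 0.037 from 5 to 10 days and 0.17 ± 0.041 from 10 to 20 days, and 1.22 ± 0.041 over the whole span (edgeR adjusted p = 1.8e-15). The last step was no longer called without replicate 2 of 20 days (0.16, adjusted p = 0.02).

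The gene for the inner membrane enzyme, cpt-2 (R07H5.2, chromosome IV), stayed near its starting level. It stood at 164, 161 and 161 CPM at 1 day, 145, 139 and 139 CPM at 5 days, 149, 151 and 149 CPM at 10 days and 167 and 168 CPM at 20 days. It fell between 1 and 5 days (-0.24 ± 0.03, edgeR adjusted p = 6.7e-07) and was called in neither of the next intervals. Over the whole span it was called lower by a small amount (-0.10, adjusted p = 0.0068), which turned into 0.04 (adjusted p = 0.24) with scaling by library size and was lost when 1 of 4 single libraries was left out (adjusted p up to 0.061 without replicate 1 of 20 days). Together, cpt-1 and cpt-2 made up 87.3% of the class per length at 1 day and 89.1% at 20 days, and the part of cpt-1 alone went from 46.6 ± 0.973% to 66.01 ± 0.294%.

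The remaining 4 members of the carnitine palmitoyltransferase family started low, and 3 of them rose. The gene cpt-3 (Y48G9A.10) was at 1.01, 1.12 and 0.968 CPM at 1 day and 1.301, 0.8704 and 0.926 CPM at 5 days, then at 6.79, 7.46 and 7.296 CPM at 10 days and 29.1 and 28.1 CPM at 20 days. Its change over the span, 4.63 ± 0.11 (edgeR adjusted p = 6e-18), was the largest rise of the 51 members, with no call between 1 and 5 days. The gene cpt-4 (K11D12.4) was at 1.14, 0.864 and 1.59 CPM at 1 day, 3.32, 2.95 and 2.299 CPM at 5 days, 5.31, 4.698 and 5.99 CPM at 10 days and 17.9 and 18.4 CPM at 20 days, a change of 3.74 ± 0.15 (adjusted p = 2.3e-14) with a call at each step. Per length, cpt-3 and cpt-4 together still made up only 6.05% of the transport class at 20 days, up from 0.524% at 1 day.

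The last pair of the family diverged. The level of cpt-6 (W01A11.5) was 13.1, 14.98 and 14.3 CPM at 1 day, 25.2, 23.4 and 23.8 CPM at 5 days, 35.1, 35.5 and 36.03 CPM at 10 days and 36.1 and 33.8 CPM at 20 days. It rose in the first pair of intervals (0.72 and 0.55) and was not called in the last (-0.13, edgeR adjusted p = 0.045). In contrast, cpt-5 (F09F3.9) was at 36.4, 38.6 and 39.1 CPM at 1 day, 24.3, 22.1 and 18.8 CPM at 5 days, 8.43, 7.58 and 10.02 CPM at 10 days and 4.17 and 3.92 CPM at 20 days. It fell at each step, and its change over the whole span was -3.39 ± 0.11 (adjusted p = 1.4e-15), with no overlap of libraries between ages.

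**Figure D3:**
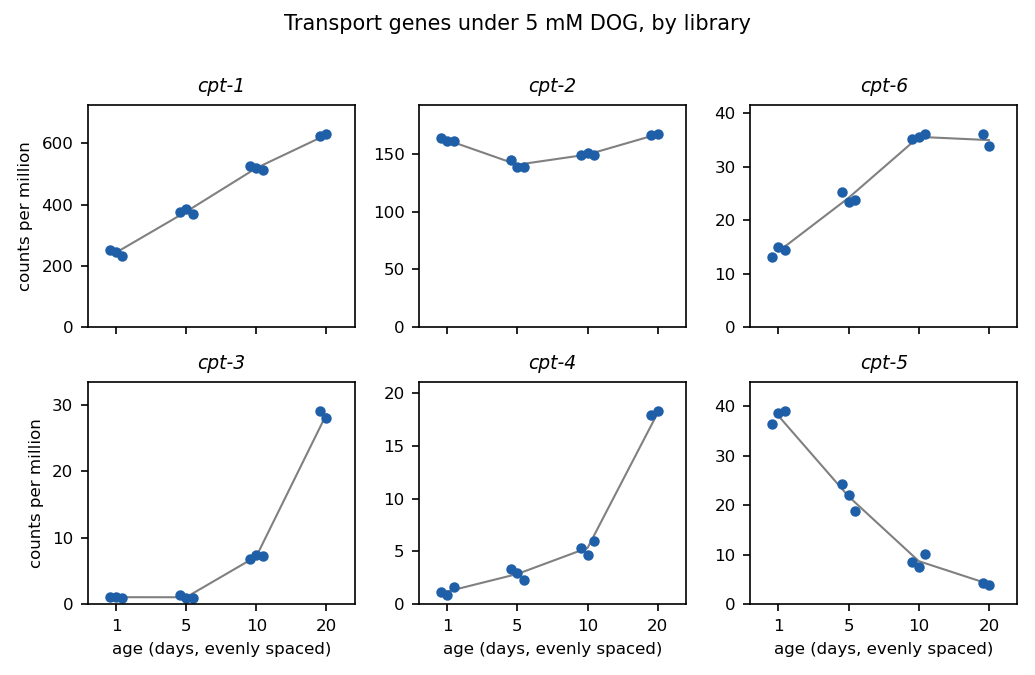
CPM of the 6 transport genes against age in days (ages evenly spaced), with 1 point per library (3 libraries at 1, 5 and 10 days, 2 at 20 days), a line through the means and a separate scale from 0 in each panel. The late rise of cpt-3 to 28.6 CPM and the decline of cpt-5 from 38.02 to 4.04 CPM are seen in every library, while cpt-2 stays between 139 and 168 CPM.

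The activation class was dominated by 3 genes that changed little over the whole span. These were acs-13 and acs-4, of the long-chain acyl-CoA synthetase family, and acs-19, an acetyl-CoA synthetase. They held 72.4% of the class per length at 1 day and 75.9% at 20 days. The mean level of acs-13 (Y65B4BL.5, chromosome I) was 252 ± 1.52 RPKM at 1 day and 316 ± 1.59 at 20 days, that of acs-19 (C36A4.9, chromosome III) 229.8 ± 5.04 and 308 ± 4.36, and that of acs-4 (F37C12.7, chromosome III) 172 ± 1.07 and 207 ± 6.79. Over the span acs-13 (0.18) and acs-19 (0.27) were called higher, and acs-4 was not called (0.11, edgeR adjusted p = 0.013). All 3 rose from 1 to 5 days, by 0.54, 0.35 and 0.34 on the log2 scale (edgeR adjusted p = 8.5e-11, 1.5e-07 and 5.9e-08). The mean of acs-13 was highest at 5 days, at 375 ± 6.46 RPKM. From 5 to 10 days acs-13 (-0.22) and acs-4 (-0.19) fell, and acs-19 was not called. The further call of acs-13 between 10 and 20 days (-0.13, adjusted p = 0.0063) did not hold when any 1 library of 10 or 20 days was left out, nor without replicate 2 of 5 days (adjusted p between 0.01 and 0.076).

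The strongest rise among activation genes was that of acs-2. This synthetase serves mitochondrial beta-oxidation and is a known target of the nuclear receptor NHR-49 in fasted worms (F28F8.2, chromosome V). Its libraries stood at 40.6, 38.97 and 40.5 CPM at 1 day, 99.2, 102 and 95.7 CPM at 5 days, 129, 117 and 138 CPM at 10 days and 203 and 217 CPM at 20 days. All libraries of a later age were above all libraries of each earlier age. The change was 1.27 ± 0.054 from 1 to 5 days, 0.36 ± 0.049 from 5 to 10 days, 0.61 ± 0.051 from 10 to 20 days and 2.24 ± 0.055 over the span (edgeR adjusted p = 1.8e-17). Its share of the activation class per length went from 2.13 ± 0.0431% to 9.201 ± 0.493%. Over the same span nhr-49 itself went from 108 ± 4.297 to 181 ± 2.18 CPM (0.596, adjusted p = 1.7e-11). Its coactivator mdt-15 went from 137 ± 4.63 to 238 ± 1.27 CPM (0.64, adjusted p = 5.8e-12). Of the 9 regulators of fat metabolism listed, 6 were higher and 3 lower (38.5% and 38% of all genes tested). Among the lower were nhr-80 (-1.04) and nhr-13 (-0.37). The part of NHR-49 in the rise of acs-2 was not tested.

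Activation genes that fell throughout were acs-1 and acs-5. The synthetase acs-1, required for the use of monomethyl branched-chain fatty acids (F46E10.1, chromosome V), stood at 171, 161 and 160.4 CPM at 1 day, 129, 126 and 128 CPM at 5 days, 95.5, 92.6 and 109 CPM at 10 days and 39.7 and 39.4 CPM at 20 days. Most of its decline fell into the last interval (-1.43 ± 0.054 of -2.199 ± 0.055 in all, edgeR adjusted p = 1.9e-17 over the span). By contrast, acs-5 (Y76A2B.3, chromosome III), at 77.9, 82.01 and 82.03 CPM at 1 day, 30.1, 29.5 and 28.1 CPM at 5 days, 21.9, 19.8 and 25.5 CPM at 10 days and 15.9 and 15.3 CPM at 20 days, lost most in the first (-1.51 ± 0.066 of -2.52 ± 0.077, adjusted p = 3.9e-16). The gene acs-14 (F11A3.1, chromosome V) fell in 2 steps, at 49.05, 55.5 and 59.9 CPM at 1 day, 28.6, 28.4 and 28 CPM at 5 days, 29.6, 28.3 and 34.6 CPM at 10 days and 14.8 and 13.2 CPM at 20 days. Its changes from 1 to 5 days (-1.001) and from 10 to 20 days (-1.25) were called, and that between 5 and 10 days was not (0.12, adjusted p = 0.21).

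**Figure D4:**
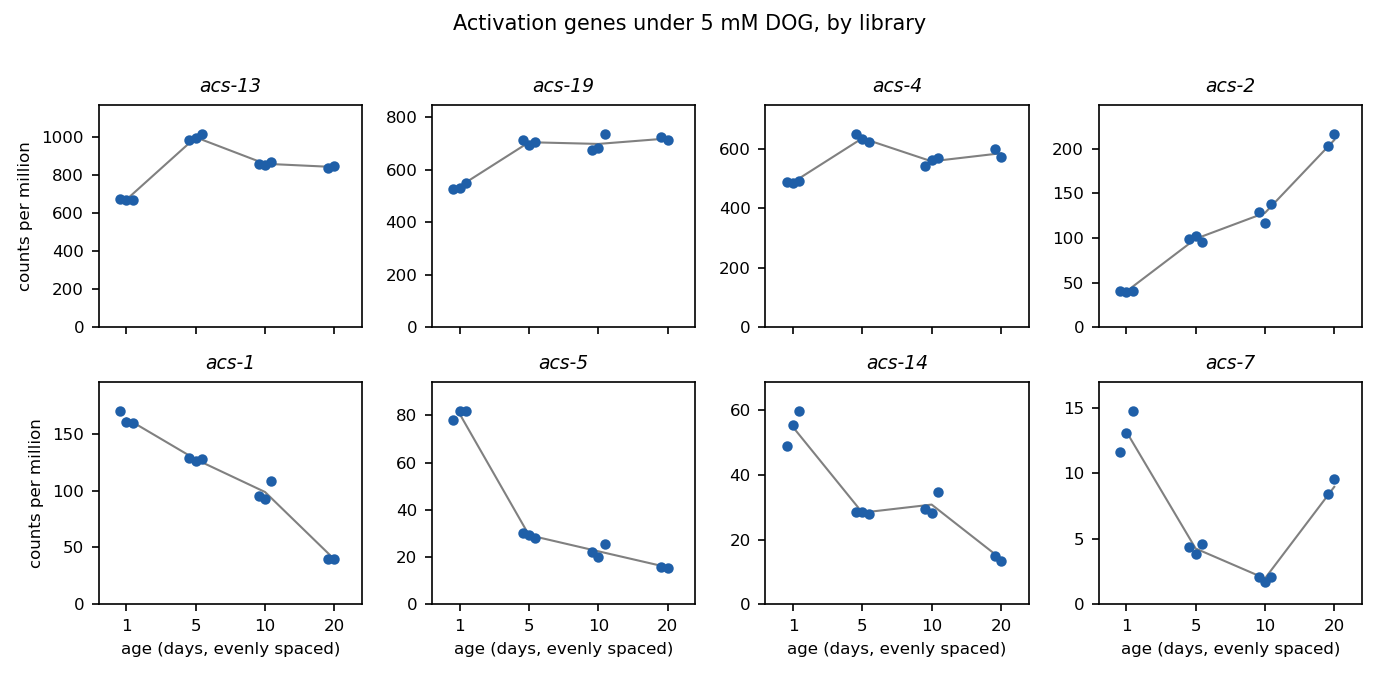
CPM of 8 activation genes against age in days (ages evenly spaced), with 1 point per library, a line through the means and a separate scale from 0 in each panel. The upper row shows the 3 genes with most RPKM and the rise of acs-2 from 40.02 to 209.8 CPM; the lower row shows 3 genes that fell and acs-7, which fell to 1.96 CPM at 10 days and stood at 8.97 CPM at 20 days.

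Several activation genes changed direction between intervals. The genes acs-20 and acs-22 encode relatives of fatty acid transport proteins that contribute to the lipid barrier of the cuticle. The level of acs-20 (F28D1.9) was 13.9, 12.5 and 12.5 CPM at 1 day, 27.5, 25.8 and 25.5 CPM at 5 days, 20.6, 21.5 and 20 CPM at 10 days and 27.9 and 26.5 CPM at 20 days. It rose, fell and rose again (0.98, -0.35 and 0.29, with edgeR adjusted p = 1.7e-11, 1.3e-05 and 0.00015). A similar sequence of calls was found for acs-12, at means of 9.3, 14.1, 9.78 and 15.99 CPM. The gene acs-22 had means of 46.3, 49.99, 42.5 and 56.2 CPM and was called only in the last pair of intervals (-0.24 and 0.30). For acs-17, the means of 21.3, 18.6, 23.63 and 44.04 CPM rested on a small fall (-0.25) before rises of 0.35 and 0.79. The gene acs-16 went from 2.83, 2.61 and 2.09 CPM at 10 days to 6.86 and 6.12 CPM at 20 days (1.28, adjusted p = 3.5e-08), and its call between 1 and 5 days (-0.45, adjusted p = 0.0088) did not hold without replicate 2 or 3 of 1 day or without replicate 2 or 3 of 5 days (-0.43 to -0.39).

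The oxidation genes with the highest levels at 1 day fell at each step. They belong to the propionate shunt, the bypass by which C. elegans oxidizes propionate when vitamin B12 is scarce. The first enzyme of this bypass is the acyl-CoA dehydrogenase acdh-1 (C55B7.4, chromosome I), and the second the enoyl-CoA hydratase ech-6 (T05G5.6, chromosome III). Their levels per length at 1 day were 658 ± 7.29 and 624 ± 27.3 RPKM. The libraries of acdh-1 stood at 1102, 1093 and 1117 CPM at 1 day, 412, 409.5 and 398 CPM at 5 days, 237, 225 and 280.1 CPM at 10 days and 26.9 and 22.8 CPM at 20 days. Each later age lay below every library of the earlier ones. The changes at the 3 steps were -1.48 ± 0.062, -0.72 ± 0.062 and -3.42 ± 0.084. The change in all was -5.63 ± 0.092 (edgeR adjusted p = 4.9e-20), the largest fitted decline of the 51 members.

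In ech-6 similar early steps were followed by a smaller last one. Its libraries stood at 606, 634 and 661 CPM at 1 day, 229, 242 and 235 CPM at 5 days, 139.9, 142 and 149 CPM at 10 days and 106 and 106 CPM at 20 days. The steps were -1.47 ± 0.044, -0.72 ± 0.044 and -0.54 ± 0.05, where acdh-1 had -1.48, -0.72 and -3.42. Whether the last step differed between the genes was not tested. The change of ech-6 over the span was -2.73 ± 0.053 (edgeR adjusted p = 6e-19).

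The later enzymes of the shunt, which are not members, also fell from 1 to 20 days. The mean level of hach-1 went from 295 ± 9.01 to 83.8 ± 4.67 CPM (-1.97), that of hphd-1 from 561 ± 24.6 to 35.2 ± 2.51 CPM (-4.15) and that of alh-8 from 1433 ± 26.6 to 628 ± 5.52 CPM (-1.34), with edgeR adjusted p = 3.3e-17, 2.8e-19 and 1.4e-15. The transcription factors NHR-10 and NHR-68 are known activators of the shunt. The gene nhr-68 fell from 31.3 ± 1.14 to 5.03 ± 0.564 CPM (-2.79, adjusted p = 1.8e-16), whereas nhr-10 rose from 16.6 ± 0.459 to 29.3 ± 0.292 CPM (0.67, adjusted p = 4.6e-10). On the canonical, B12-dependent route, pcca-1 was not called over the span (-0.07, adjusted p = 0.12), mmcm-1 rose (0.46), and pccb-1 (-0.205), mce-1 (-1.11), mmaa-1 (-0.82) and mmab-1 (-0.46) fell. Over the whole list of 9 propionate genes, 1 was higher and 7 lower between 1 and 20 days (38.5% and 38% of all genes tested).

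The enoyl-CoA hydratase gene ech-7 (Y105E8A.4, chromosome I) declined nearly as far as acdh-1. It stood at 63.6, 63.2 and 66.9 CPM at 1 day, 25.5, 29.2 and 27.01 CPM at 5 days, 11.7, 10.8 and 13.4 CPM at 10 days and 2.21 and 1.98 CPM at 20 days, with no overlap between ages. Its change over the span was -5.099 ± 0.1 (edgeR adjusted p = 6.4e-19), of which -2.62 ± 0.11 came after 10 days. The acyl-CoA dehydrogenase gene acdh-9 (F28A10.6, chromosome II) changed once. It dropped from 111, 106 and 112 CPM at 1 day to 19.3, 19.6 and 17.9 CPM at 5 days (-2.57 ± 0.047, adjusted p = 7.3e-19). Afterwards it stood at 20.1, 18.3 and 19.1 CPM at 10 days and 19.6 and 18.6 CPM at 20 days, with changes of 0.01 ± 0.052 and -0.11 ± 0.054 that were not called. The hydratase gene ech-8 (F01G10.2, chromosome IV) had means of 13.7, 9.897, 5.25 and 5.65 CPM and fell in the first pair of intervals (-0.52 and -0.92).

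**Figure D5:**
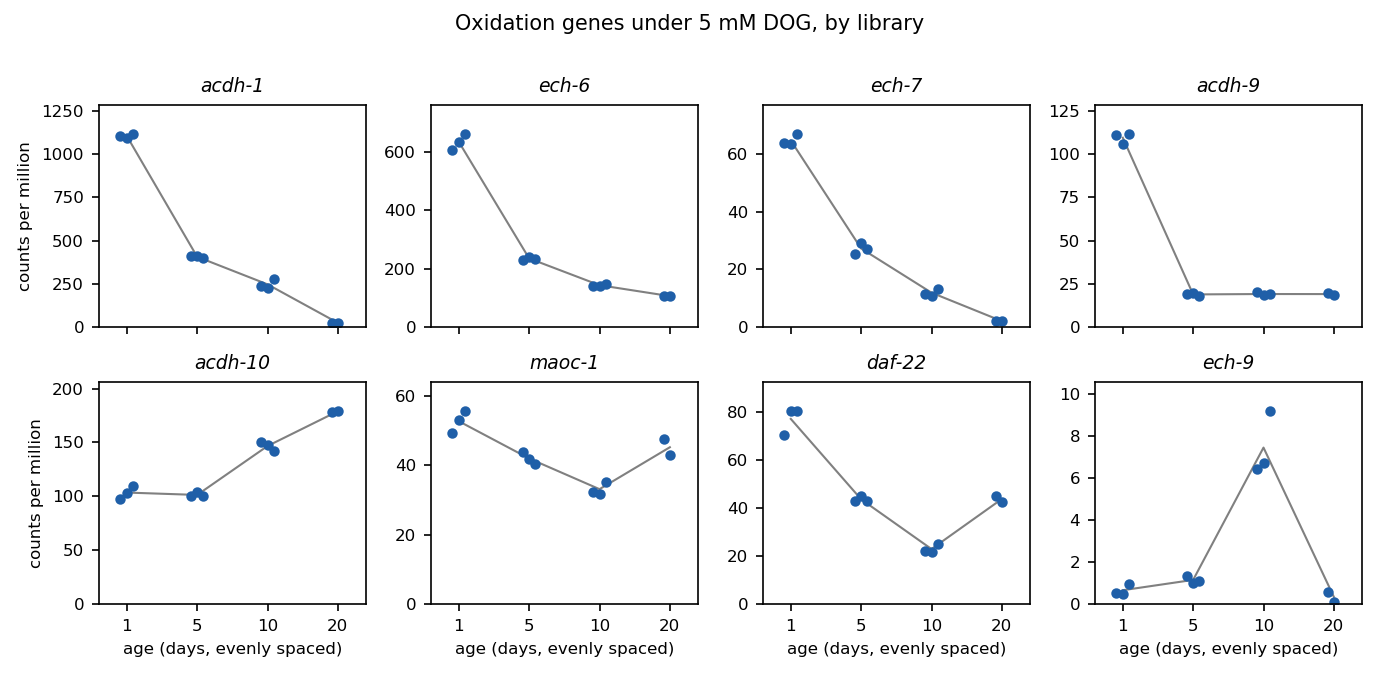
CPM of 8 oxidation genes against age in days (ages evenly spaced), with 1 point per library, a line through the means and a separate scale from 0 in each panel. The upper row shows 4 genes that fell, acdh-1 from 1104 to 24.8 CPM; in the lower row acdh-10 stands higher at 10 and 20 days, maoc-1 and daf-22 are lowest at 10 days, and ech-9 is high at 10 days only.

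Of the 24 oxidation genes, 3 were called higher between 1 and 20 days, acdh-7, acdh-10 and acdh-11, which were picked out here by these calls. The gene acdh-10, related to medium-chain dehydrogenases, stood at 97.8, 104 and 109 CPM at 1 day, 100.1, 104 and 100.3 CPM at 5 days, 151, 148 and 142 CPM at 10 days and 178 and 179.5 CPM at 20 days (0.64 ± 0.046, edgeR adjusted p = 1.7e-10). Its step after 10 days (0.18) was not called without replicate 2 of 20 days (adjusted p = 0.016). Among the 3 intervals acdh-7 was called in 1, between 5 and 10 days, from a mean of 103 to 144 CPM (0.47 ± 0.037, adjusted p = 2.5e-09). By contrast, acdh-11, whose protein binds medium-chain fatty acids and limits the heat response of fatty acid desaturation, rose between 1 and 5 days, from 62.4 to 79.6 CPM (0.31 ± 0.043, adjusted p = 2.9e-06).

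The gene related to very long-chain dehydrogenases, acdh-12 (E04F6.5), was among the steadiest members, at 151, 160.4 and 163 CPM at 1 day and 181 and 176 CPM at 20 days. Its change over the span was 0.02 ± 0.041 (edgeR adjusted p = 0.63), and it was called higher only with scaling by library size (0.17, adjusted p = 0.0004). The third most abundant oxidation gene per length, acdh-3 (K06A5.6, 101 ± 3.96 RPKM at 1 day), rose by 0.17 between 5 and 10 days and fell by 0.37 on the log2 scale afterwards. Its small net fall (-0.18, adjusted p = 0.00096) was lost with scaling by library size (-0.03) and without replicate 2 of 20 days (adjusted p = 0.011). In the WBcel235 annotation, exons of acdh-3 share 92 bases with the abundant gene knl-2 on the other strand. Whether strand was used in counting is not given in the sources used here.

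A further course, lower until 10 days and higher again at 20 days, was seen in 4 members, and 3 of them act in the peroxisomal pathway. These calls, lower from 1 to 5 and from 5 to 10 days and then higher, were made for acs-7, maoc-1, daf-22 and ech-1. The share of all genes with this sequence was not counted. The thiolase gene daf-22 (Y57A10C.6, chromosome II) stood at 70.4, 80.1 and 80.4 CPM at 1 day, 42.9, 44.9 and 42.8 CPM at 5 days, 21.9, 21.6 and 25.2 CPM at 10 days and 44.8 and 42.6 CPM at 20 days. Its range at 20 days overlapped that of 5 days. The steps were -0.87 ± 0.062, -0.93 ± 0.067 and 0.82 ± 0.07 (edgeR adjusted p = 6.6e-09 for the last). The hydratase gene maoc-1 (E04F6.3, chromosome II), which acts before daf-22 in ascaroside shortening, moved less. It stood at 49.4, 52.97 and 55.7 CPM at 1 day, 43.8, 41.8 and 40.2 CPM at 5 days, 32.3, 31.8 and 35.3 CPM at 10 days and 47.5 and 42.9 CPM at 20 days, with steps of -0.38 ± 0.057, -0.34 ± 0.058 and 0.34 ± 0.061 (adjusted p = 7.8e-05 for the last).

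The synthetase acs-7 (C01G6.7, chromosome II), which activates ascaroside side chains, had the widest swing of the 4. Its libraries stood at 11.7, 13.1 and 14.8 CPM at 1 day, 4.33, 3.85 and 4.57 CPM at 5 days, 2.07, 1.71 and 2.11 CPM at 10 days and 8.41 and 9.54 CPM at 20 days. The rise after 10 days was 2.09 ± 0.12 (edgeR adjusted p = 3.9e-11). The gene ech-1 (C29F3.1, chromosome V), related to the alpha subunit of the mitochondrial trifunctional protein, had means of 15.7, 5.5, 3.26 and 7.69 CPM. Its rise after 10 days was 1.14 ± 0.091 (adjusted p = 3.2e-09). No library of 20 days overlapped one of 10 days in these 4 genes, which adds no support, since they were picked by their calls in this interval.

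The peroxisomal enzymes that work with maoc-1 and daf-22 but fall outside the rule included genes with the same sequence of calls. The acyl-CoA oxidase acox-1 had means of 46.6, 26.1, 17.5 and 38.8 CPM (steps -0.88, -0.57 and 1.04) and the dehydrogenase dhs-28 means of 106, 67.6, 49.2 and 87.5 CPM (steps -0.701, -0.46 and 0.72). Other acyl-CoA oxidases took another course. The gene acox-1.5 went from 31.4 to 2.66 CPM after 10 days (-3.68, edgeR adjusted p = 6.8e-14), and acox-1.2 from 32.4 at 5 days to 1.75 CPM at 20 days. The ABC transporter gene pmp-5, listed here by its name and not by a known place in the cell, fell from 183 ± 5.04 to 2.33 ± 0.174 CPM (-6.45, adjusted p = 3.2e-20). Of the 14 genes listed as peroxisomal partners, pmp-5 among them, 3 were higher and 9 lower from 1 to 5 days (34.5% and 34% of all genes tested). From 5 to 10 days 7 were lower (24.6%), and from 10 to 20 days 6 were higher and 6 lower (28.3% and 28.2%). Over the span 4 were higher and 10 lower (38.5% and 38%).

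In mitochondria, 1 of 6 listed partner genes was higher and 5 were lower at 20 days than at 1 day (38.5% and 38% of all genes tested). The thiolase gene kat-1 fell from 263 ± 12.3 to 81.4 ± 0.607 CPM (-1.84, edgeR adjusted p = 1.3e-16). The hydroxyacyl-CoA dehydrogenase gene hacd-1 rose to 119.8 CPM at 5 days and fell to 20.4 CPM at 20 days, and let-721, related to the electron transfer flavoprotein dehydrogenase that takes up the electrons of beta-oxidation, was slightly higher (0.14, adjusted p = 0.0021).

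One member was high at a single age. The level of ech-9 (F01G10.3, chromosome IV) rested on 13, 16 and 39 counts at 1 day, 37, 32 and 35 at 5 days, 251, 299 and 493 at 10 days and 30 and 7 at 20 days, or 6.41, 6.72 and 9.199 CPM at 10 days beside at most 1.34 CPM elsewhere. It rose by 2.71 ± 0.23 between 5 and 10 days (edgeR adjusted p = 1.1e-08) and fell afterwards (-4.59 ± 0.3, adjusted p = 1.4e-10). The change between 1 and 20 days (-1.19, adjusted p = 0.027) was called only without replicate 1 of 20 days (-2.63) or with no count minimum.

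The lipases that release fatty acids from stored fat, listed apart from the members, included 4 genes whose mean was also highest at 10 days and lowest at 20 days. The lysosomal lipase lipl-1 had means of 2.26, 21.8, 42.1 and 1.91 CPM, lipl-2 of 0.743, 14.4, 15.4 and 0.446 CPM, lipl-3 of 0.441, 0.805, 2.34 and 0.146 CPM and fil-1 of 0.773, 1.54, 2.19 and 0.407 CPM. For lipl-2 the step from 5 to 10 days was not called (0.096, adjusted p = 0.41). Between 10 and 20 days all 4 fell (log2 changes of -4.59, -5.23, -4.09 and -2.54, edgeR adjusted p = 5.1e-14, 1e-14, 2.5e-08 and 3.6e-09). The adipose triglyceride lipase atgl-1 instead rose from 112 ± 3.46 CPM at 1 day to 200.5 ± 4.25 CPM at 20 days (0.69, adjusted p = 1e-12). Of the 10 lipase genes tested (lipl-8 had too few counts), 7 were higher from 1 to 5 days and 6 from 5 to 10 days (34.5% and 23.7% of all genes tested). From 10 to 20 days 2 were higher and 6 lower (28.3% and 28.2%).

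A group of members with few counts were high at 1 day, at or near no counts in midlife and partly back at 20 days. The synthetase gene acs-18 had 33, 46 and 62 counts at 1 day, 0, 0 and 0 at 5 days, 0, 1 and 0 at 10 days and 12 and 39 at 20 days. Set against a floor of 3 counts per library (0.0991 CPM at 5 days), its level was at least 14.3-fold lower at 5 days than at 1 day, and edgeR called the fall (adjusted p = 5.3e-08). Of the 193 counts of acs-18, 141 came from 1 day. It passed the count minimum through that age, so the call of this fall is not independent of the filter. From 10 to 20 days, the ratio of its summed counts per depth was 62.7 (95% interval 10.8 to 2530 from an exact binomial test, counting error only). The dehydrogenase gene acdh-8 had 76, 116 and 162 counts at 1 day, 0, 3 and 0 at 5 days, 3, 1 and 1 at 10 days and 5 and 23 at 20 days. From 1 to 5 days the ratio of its summed counts per depth was 109 (interval 37 to 531). The gene acdh-8 also passed the count minimum through 1 day, with 354 of its 390 counts. Its later rise (2.58, adjusted p = 0.0059) rested on replicate 2 of 20 days, without which it was 1.19 (adjusted p = 0.31), and it was also lost without replicate 2 or 3 of 10 days.

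The same calls, lower from 1 to 5 days and higher from 10 to 20 days, were made for acs-6, acs-10 and acdh-6, whose means were 4.17, 1.99 and 1.29 CPM at 1 day, 0.614, 0.129 and 0.257 CPM at 5 days, 0.342, 0.235 and 0.118 CPM at 10 days and 0.666, 0.791 and 0.415 CPM at 20 days. The late call of acs-6 was lost without replicate 2 of 20 days (0.59, adjusted p = 0.16) and when 1 of 6 other libraries was left out, and that of acdh-6 without replicate 1 of 20 days (adjusted p = 0.019) or replicate 3 of 10 days. For acdh-2, 37, 57 and 63 counts at 1 day stood against 0, 1 and 2 at 5 days (ratio 48.4, interval 16.3 to 237), and the counts of 0, 0 and 0 at 10 days and 0 and 4 at 20 days are at or near the floor. With 157 of its 164 counts at 1 day, acdh-2 passed the count minimum through that age. The sperm genes gsp-3 and gsp-4 moved alike, with 61, 88 and 111 and with 60, 88 and 131 counts at 1 day, at most 3 in any library of 5 days, at most 9 at 10 days, and 10 and 47 and 17 and 45 at 20 days. Of the 6 sperm markers listed, 5 were lower from 1 to 5 days and 4 higher from 10 to 20 days (34% and 28.3% of all genes tested). Their summed CPM was 18.4 to 20.3 at 1 day, 5.91 to 6.58 at 5 days, 5.91 to 6.67 at 10 days and 10.3 to 13 at 20 days. Of these markers, spe-9 was called in no comparison, at means of 0.39, 0.56, 0.42 and 0.37 CPM. The marker spe-26 was called only from 1 to 5 days (-0.51). The part of sperm transcripts in the members above was not tested. In gsp-3, gsp-4, acs-6, acs-10, acs-18 and acdh-8, replicate 2 of 20 days held more counts than replicate 1, whereas acdh-6 had 21 beside 25. Replicate 2 was also the deeper library, with 58499127 counts on genes against 53042713. The other sperm markers were not compared by library. Their means and SD at 20 days (n = 2) were 0.369 ± 0.0382 (spe-9), 3.47 ± 0.0771 (spe-11), 1.51 ± 0.187 (spe-26) and 5.27 ± 0.891 CPM (spe-41). Those of gsp-3 and gsp-4 were 0.496 ± 0.435 and 0.545 ± 0.317 CPM, the widest spread of the 6 relative to the mean.

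The other members had the following values. The synthetase acs-11 rose from 60.7 ± 0.477 CPM at 1 day to 94.5 ± 3.32 CPM at 5 days (0.598, edgeR adjusted p = 2.4e-11) and was not called afterwards. The synthetase acs-3, with means of 2.43 and 3.67 CPM at the first and last age, was called from 5 to 10 days alone (0.88). The calls of acs-21 after 10 days and over the span (0.28 and 0.29, adjusted p = 0.0097 and 0.0096) were lost in most alternatives, among them those without either library of 20 days. The oxidation genes acdh-13 (-1.03) and ech-2 (-0.92) fell over the span, while ech-3 (-0.25) and ech-4 (-0.21) were called lower by amounts that scaling by library size reduced to -0.10 and -0.06, neither called. The call of ech-3 was also lost without replicate 2 of 20 days (-0.19). The dehydrogenase genes acdh-4 (-1.25) and acdh-5 (-1.27) and the synthetase acs-15 (-2.75) fell from 1 to 5 days at means under 4 CPM, and the call of acs-15 over the span (-1.42) was lost without replicate 1 of 20 days (-0.98). The level of acs-9 stayed under 1 CPM. Exons of acs-9 share 228 bases with T20F7.1, and those of maoc-1 105 bases with E04F6.6, each on the other strand in WBcel235. Reads that match several members of a family equally were not examined here.

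Of the 9 regulators of fat metabolism listed, 6 were higher and 3 lower at 20 days than at 1 day (38.5% and 38% of all genes tested). The sterol regulatory element binding protein gene sbp-1 rose from 24.04 ± 3.48 to 57.1 ± 0.891 CPM (1.12, edgeR adjusted p = 4.5e-11) and nhr-80, a receptor that acts on fatty acid desaturation, fell (-1.04). On the side of synthesis, the fatty acid synthase gene fasn-1 rose from 198 ± 5.78 to 578 ± 28.4 CPM (1.399, adjusted p = 2.8e-15). The acetyl-CoA carboxylase gene pod-2 rose from 359 ± 17.1 to 562 ± 1.25 CPM (0.499). The gene of malonyl-CoA decarboxylase, mlcd-1, which is not a step of synthesis, fell (-0.51). Listed genes outside the members were named after their values were seen.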

How the data were processed

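Single-end reads were mapped by the authors with TopHat (version 1.4.1 in the submitters' processing notes) to the genome WS220 and counted per gene with HTSeq in union mode. The deposited values are these raw counts, not normalized, filtered or pooled. Whether strand was used is not given in the sources used here.

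The quasi-likelihood test of edgeR 4.0.16 (with limma 3.58.1 in R 4.3.3) was run on the counts of all 11 libraries, with the 4 ages in one fit, TMM factors (0.946 to 1.08), no covariate and at least 100 counts summed over libraries (14773 genes). The threshold of 0.01 after Benjamini-Hochberg adjustment follows the study. The test was first tested on simulated data. CPM divides by all counts on genes, and RPKM also by the exon length of WBcel235, since the files hold no lengths. Alternatives were DESeq2 1.42.0, RLE or library size scaling, other count minimums, 2-age fits, a replicate block and leaving out each library. Python 3.11.15, pandas 2.3.3, numpy 2.4.6, scipy 1.17.1 and matplotlib 3.10.9 served otherwise.

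Members and lists were chosen with earlier results of these data known. Genes were named by rule: every cpt gene, maoc-1 and daf-22, the 6 acs and 8 other oxidation genes that changed most between 1 and 20 days, the 3 most abundant of each class per length, and members called in opposite directions. Others were named after their values were seen. Where the table lacks a listed symbol, the WBcel235 name was matched. No genome coordinates are given, since the builds differ.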

Additional observations from a re-analysis of the deposited data

How the results depend on the processing

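Of 204 pairs of a member and a comparison, 31 changed their call under at least 1 alternative. Leaving out each of the 11 libraries in turn gave 2232 values, of which 51 lost and 8 gained a call and none reversed. The other alternatives gave 1349 values, of which 23 lost and 19 gained a call and 2 reversed. Leaving out 1 library, the count of members called higher ran from 11 to 11 (1 to 5 days), 11 to 11 (5 to 10), 15 to 20 (10 to 20) and 15 to 17 (1 to 20), and the count called lower from 26 to 29, 17 to 19, 11 to 12 and 23 to 27. With at least 100 counts in every library, 35 members were tested and 12 instead of 20 were called higher from 10 to 20 days, the filter leaving fewer to be called. Under that filter ech-4 reversed from 1 to 5 days (0.01 to -0.13, adjusted p = 0.0058), and with scaling by library size cpt-2 reversed from 1 to 20 days (-0.105 to 0.044, adjusted p = 0.24); the filter shifts the change of all 35 members alike from 1 to 5 days, by -0.133 to -0.131, and scaling by library size moves the median of all genes by 0.14. RLE size factors, DESeq2, no count minimum and a fit of only the ages compared left every count of members called within 1.5 times its value in the main analysis.

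Without a count minimum 26569 genes were tested, of which 22.4% were called higher and 23.9% lower from 1 to 20 days. Members at or under the floor of 3 counts per library at both ages have no meaningful fold. Leaving these out and taking a bound for acs-18, the median change of the members from 10 to 20 days was 0.03 over 50 genes instead of 0.06, and that of the activation genes from 5 to 10 days -0.12 over 20 genes instead of -0.04.

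The replicate numbers do not pair the libraries. Deviations from the age means correlated at -0.114 to 0.042 for the 15 pairs of libraries with the same number and at -0.114 to 0.114 for the 30 other pairs. With the replicate block in the fit, 15 instead of 16 members were called higher from 1 to 20 days, the other 7 counts were as before, acs-21 lost both calls and acdh-5 gained one from 10 to 20 days (0.85).

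The precision of genes with few counts is limited mainly by the sampling of reads, and that of abundant genes by replicate spread (biological coefficient of variation 4.14%). The age of 20 days has 2 libraries, and of the 51 calls lost on leaving out 1 library, 10 were lost without replicate 2 of 20 days and 6 without replicate 1.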

Other observations

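A gene outside the name rule belongs to the same enzyme family. In the WBcel235 annotation the gene listed in the table as T08B2.7 is named ech-1.2, and ech-1 is named ech-1.1. Both are related to the alpha subunit of the trifunctional protein. At 1 and 5 days T08B2.7 stood at 339 ± 5.95 and 342 ± 17.3 CPM (SD, n = 3 each), in worms of 10 days at 513 ± 6.45 (n = 3) and of 20 days at 586 ± 12.8 CPM (n = 2). From the first to the last age it changed by 0.64 on the log2 scale (edgeR adjusted p = 7.9e-11), where ech-1 had -1.18 ± 0.079 (adjusted p = 6e-11). The 2 genes moved in opposite directions, each in all libraries of the later age against all of the earlier. C32E8.6, now named acs-24, had between 3 and 43 counts per library.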
